A study of Mus musculus with 12 samples.

Results

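The ephrins, Slits and netrins and their receptors were followed in RNA-seq of the cochlear sensory epithelium of postnatal day (P) 6 mice, a bulk measurement in which the reads of every cell in the dissected tissue are counted together on each gene. The members were all symbols of the count table that name an Eph receptor, an ephrin, a Slit, a Robo, a netrin, a netrin-G, an Unc5 receptor, *Dcc* or *Neo1*, whatever their values, which gave 40 genes of 28686 in the table. There were 6 mutants of the genotype Sox2CreER/+Jag1 fl/fl and 6 control littermates that were Sox2+/+, and every pup received tamoxifen at P0 and P1. In supporting cells the *Sox2* locus drives CreER, a recombinase that tamoxifen switches on and that then excises the floxed part of *Jag1*, a Notch ligand of these cells. No control had a CreER allele, hence the mice differed at *Sox2* too, and the crosses allow 1 or both *Jag1* alleles of a control to be floxed. The labels give the strain as C57BL/6;129SV, whereas the methods name FVB/n as the background of the *Jag1* flox allele. Nothing in the labels says that animals were pooled, and the libraries were taken as 12 mice.

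These genes are best known from growing axons. Ephrins are ligands held on the cell surface that signal to Eph receptor kinases on a neighbouring cell, Slits are secreted ligands of the Robo receptors, and netrins are secreted ligands of *Dcc*, *Neo1* and the Unc5 receptors. In the cochlea members of these families are known to guide the fibres of spiral ganglion neurons, and they also act between epithelial cells, in vessels and in mesenchyme.

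Between 28498549 and 34430252 reads per control and between 31899265 and 36134983 reads per mutant were counted on genes. *Jag1* lay between 83.0 and 118 CPM (read counts scaled to the depth of each library and corrected by its TMM factor) in controls and between 24.2 and 42.9 CPM in mutants, without overlap (log2 fold change −1.48, SE 0.13, edgeR adjusted p = 0.000258). Markers of hair cells, supporting cells, mesenchyme, vessels, macrophages, neurons and Schwann cells were all detected in every library. The summed CPM of 14 neuron markers lay between 127 and 252 in controls and between 157 and 1461 in mutants, and the 10 Schwann cell markers summed to 521 to 1507 in controls and 1287 to 6320 in mutants. Of these lists, 13 neuron and 9 Schwann cell markers were higher in mutants at an unadjusted p under 0.05, against 6.52% of all genes, and none was called. Of 10 markers each, 6 of macrophages and 4 of supporting cells were lower at an unadjusted p under 0.05, against 4.04% of all genes. The supporting cell list holds *Sox2*, the locus of the CreER allele. It also holds *Fabp7*, whose protein the paper used to label Hensen's cells, supporting cells that it found reduced in mutants at P6. The part of either in this count was not tested. Of the other lists, 1 of 10 hair cell markers was higher, and 1 of 10 was lower for both vessels and mesenchyme. Mutants 1 and 2 had the largest Schwann cell sums, 6320 and 4885 CPM, and mutant 4 had the largest neuron sum, 1461 CPM, with a Schwann cell sum of 1287 CPM. Mutant 5 had a neuron sum of 157 CPM, inside the range of the controls. In mutant 1 transcripts of at least 5 kb had a median log2 difference of −0.28 from the control median, over genes with a mean of at least 10 CPM, and transcripts under 2 kb one of 0.20. Hair cell markers summed to 492 to 551 CPM in controls and 515 to 585 CPM in mutants, macrophage markers to 423 to 534 and 352 to 441 CPM, and mesenchyme markers to 9752 to 11900 and 9157 to 10840 CPM. Members described in full are also given without mutants 1, 2 and 4, a choice made after seeing the data. Every member higher in mutants at an unadjusted p under 0.05 had its highest value in 1 of these mice. Leaving them out therefore tends to shrink its difference by construction, and a smaller value is given as a description only. In bulk tissue fewer cells of a type and less RNA per cell cannot be told apart.

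All 40 members had reads, but their levels in controls, taken as CPM per kb of the longest coding transcript so that genes of unequal length can be set side by side, spanned a 4226-fold range. Of the 40, 13 lay above 10 CPM per kb and 7 lay below 1 CPM per kb. The highest level was that of *Neo1*, a receptor for netrins and repulsive guidance molecules, at 53.6 ± 5.17 CPM per kb (SD, n = 6). It was followed by *Ephb4* at 47.2 ± 3.81 and by *Efnb2*, the main ligand of *Ephb4* in vessels, at 43.6 ± 4.48 CPM per kb. The control ranges of *Neo1*, *Ephb4* and *Efnb2* overlapped with one another, those of *Neo1* and *Efnb2* only narrowly. Within single mice *Neo1* lay above *Ephb4* in 4 of the 6 controls and *Ephb4* above *Efnb2* in 5, so the order of neighbours varied. *Neo1* lay above *Efnb2* in all 6 controls. At the other end lay *Epha6*, at 0.0127 ± 0.0147 CPM per kb, and *Robo3*, a Robo of commissural axons, at 0.0130 ± 0.00683 CPM per kb. The reads of *Robo3* gave 0.0624 ± 0.0328 CPM in controls against 0.0836 ± 0.0638 CPM in the other genotype and was the 1 member with too few reads to be tested. When the merged exons of all transcripts were used as the length instead, *Slit2* moved from rank 8 to 20 and *Robo1* from rank 7 to 14, while *Neo1* and *Ephb4* kept ranks 1 and 2.

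**Figure D1:**
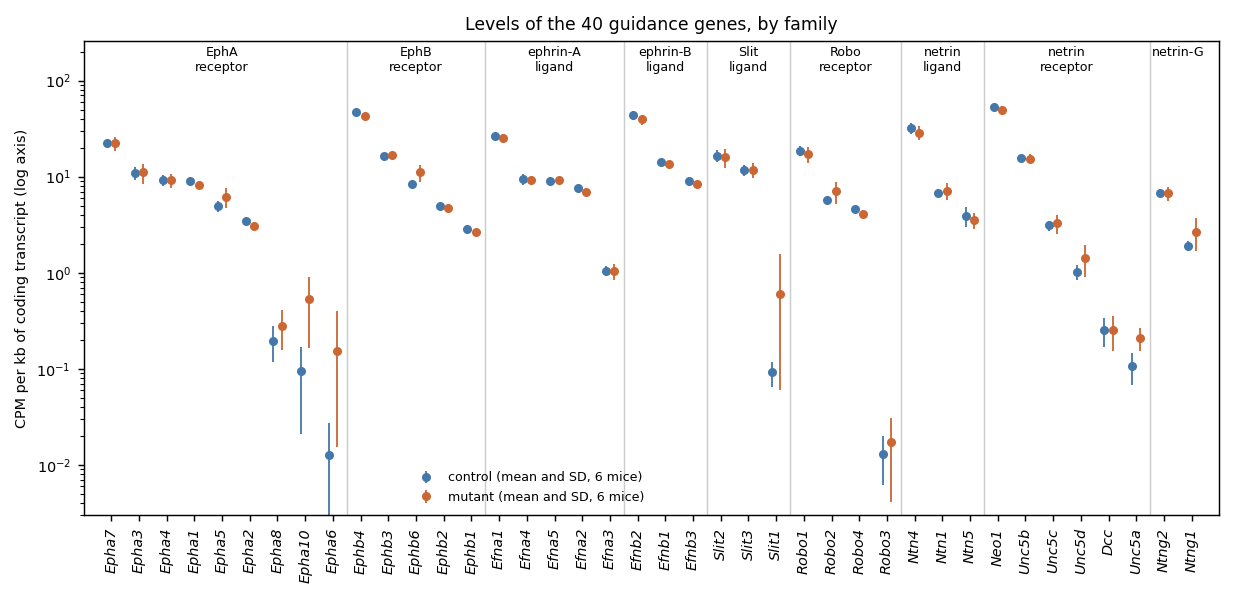
Level of each of the 40 genes in CPM per kb of coding transcript on a log axis, by family, as the mean and SD of 6 controls (blue) and 6 mutants (orange). Where the SD comes close to or exceeds the mean, the lower bar is cut short so that it fits on the log axis. *Neo1*, *Ephb4* and *Efnb2* lie highest, and the wide bars of the mutants belong to *Epha10*, *Epha6*, *Slit1* and *Robo3*, all below 1 CPM per kb.

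Most families were led by 1 or 2 genes. Among the netrin receptors *Neo1* gave 72.7% of the summed level in controls and *Unc5b*, an Unc5 receptor of vessels and epithelia, at 15.6 ± 0.71 CPM per kb, brought the share to 93.9%. *Dcc*, the receptor through which netrin attracts axons, lay at 0.253 ± 0.0845 CPM per kb. Its reads gave between 1.56 and 3.68 CPM in controls and between 0.981 and 3.61 CPM in mutants, overlapping widely. Of the netrins, *Ntn4*, a netrin of basement membranes, gave 74.9% at 31.9 ± 4.04 CPM per kb, ahead of *Ntn1* at 6.78 ± 0.589 CPM per kb. *Ntng2*, one of the membrane-anchored netrin-G proteins, lay at 6.78 ± 0.703 and *Ntng1* at 1.91 ± 0.24 CPM per kb.

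The Slit and Robo families were led by *Slit2* at 16.6 ± 2.42 and *Robo1* at 18.7 ± 2.36 CPM per kb. *Slit3*, at 11.8 ± 1.53 CPM per kb, and *Slit2* together made up 99.7% of the Slit level, so *Slit1* added almost nothing to it in controls. *Robo2* lay at 5.78 ± 0.554 CPM per kb. The EphB receptors were led by *Ephb4*, with 59.3% of their summed level, and by *Ephb3* at 16.3 ± 1.1 CPM per kb, and the ephrin-B ligands by *Efnb2*, with 65.5%, and *Efnb1* at 14.1 ± 0.356 CPM per kb. The EphA receptors were shared out more evenly, *Epha7* giving 37.1% at 22.3 ± 2.04 CPM per kb and *Epha3* following at 10.8 ± 1.71 CPM per kb. *Efna1* gave 49.2% of the ephrin-A level at 26.3 ± 2.22 CPM per kb and *Efna4* followed at 9.46 ± 1.21 CPM per kb. The genes *Ntn5*, *Efna3*, *Efna4* and *Ntng2* share 23.4%, 14.1%, 10.5% and 14.0% of their merged exons with another annotated gene, on the opposite strand for the first 3 and on the same strand for *Ntng2*. The strand setting of the counting is not given, so reads in the shared parts could belong to either gene.

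The comparison of mutants with controls addressed whether deletion of *Jag1* in supporting cells altered these genes at P6. None of the 39 members tested passed an edgeR adjusted p under 0.05, where 0.19% of all genes tested did, and the smallest edgeR adjusted p was 0.0864. At an unadjusted p under 0.05, 8 members were higher in mutants, 20.5% of the 39 against 6.52% of all genes, and 4 were lower, 10.3% against 4.04% of all genes. Without *Epha6*, which passed the count filter only through the mutants, the higher share was 18.4%. The values of *Ephb6* and *Slit1* did not overlap between the genotypes, and 0.997% of all genes tested had values that did not overlap. DESeq2 called *Epha10*, *Epha6* and *Ephb6*, with 3.37% of all genes called, and gave neither a p nor an adjusted p for *Slit1*. With limma-voom no member and 0.103% of all genes were called. Without mutant 5 edgeR called *Epha10* and *Ephb6*, with 1.93% of all genes called. Mutant 5 had the lowest value of the mutants in both genes, so leaving it out raises their differences by construction. The 8 higher members became 5 without control 3, control 4 or mutant 2. The median log2 fold change was −0.017 over the 39 members and 0.003 over all genes tested. Of the 39, 29 differed by less than 0.20 on the log2 scale, and 27 had an edgeR adjusted p over 0.5. The members that led their families were among both the 29 and the 27, except *Ephb4*. That gene, among the lower members, differed by −0.13 (SE 0.06) but had an edgeR adjusted p of 0.458. *Neo1* differed by −0.12 (SE 0.09), *Epha7* by −0.007 (SE 0.11) and *Robo1* by −0.12 (SE 0.13) on the log2 scale. *Slit2* differed by −0.07 (SE 0.15) and *Ntn4* by −0.15 (SE 0.11). *Efnb2* differed by −0.14 (SE 0.09) and *Efna1* by −0.07 (SE 0.08).

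**Figure D2:**
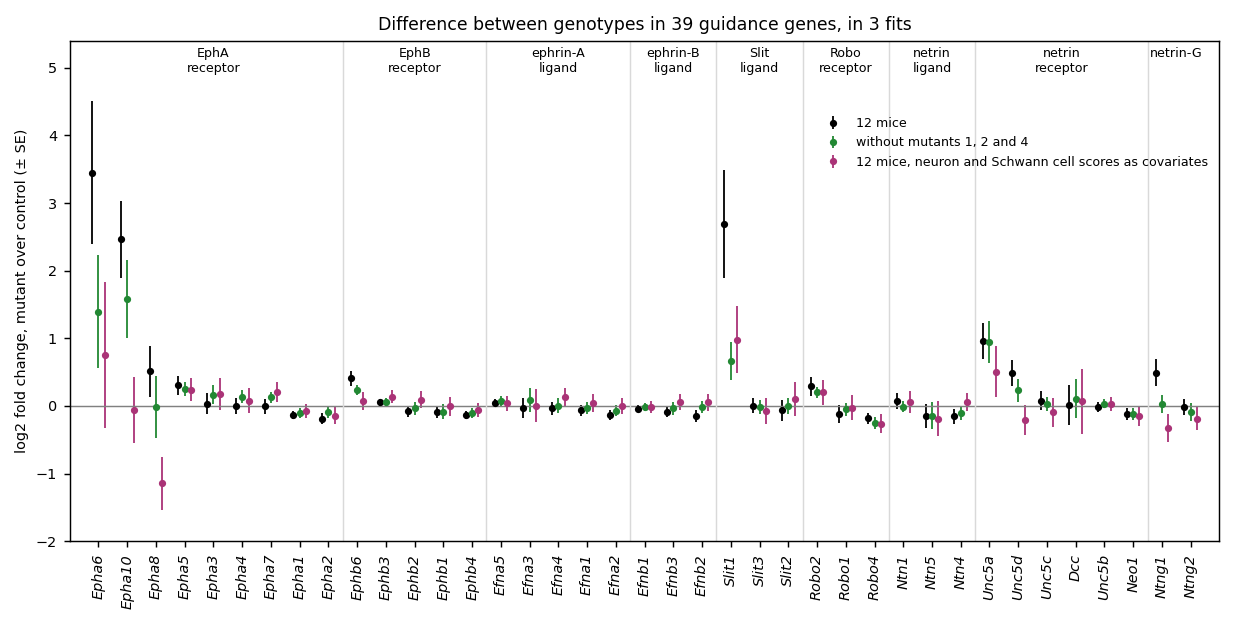
Log2 fold change of mutants over controls (± SE) for the 39 tested genes by family, from the 12 mice (black), without mutants 1, 2 and 4 (green) and with the neuron and Schwann cell scores of each mouse as covariates (purple). Most genes lie close to 0 in all 3 fits, whereas *Epha6*, *Epha10* and *Slit1* lie above 2 in black and below 2 in the other 2 fits.

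The 8 members that were higher at an unadjusted p were Eph receptors (*Epha10*, *Epha6*, *Epha5* and *Ephb6*), netrin receptors (*Unc5a* and *Unc5d*), the ligand *Slit1* and the netrin-G gene *Ntng1*, several of them best known from neurons. *Slit1*, *Epha6*, *Epha10* and *Unc5a* were all below 1 CPM in controls, so that their folds rest on few reads. *Epha6* passed the count filter only through the mutants, so that it had to differ once tested. Without it 7 of 38 members, 18.4%, were higher at an unadjusted p under 0.05.

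*Epha10* (chr4:124880899-124917800, GRCm38), an Eph receptor without kinase activity, had the smallest p of the members. Its lowest, median and highest values were 0.0312, 0.229 and 0.565 CPM in controls and 0.273, 1.12 and 2.97 CPM in mutants. Of the 6 mutants, 5 lay above every control and mutant 5 lay among the controls. The log2 fold change was 2.46 (SE 0.57, edgeR adjusted p = 0.0864, exact permutation p = 0.00866). Without mutant 5, the mutant with the lowest value, *Epha10* was called at an edgeR adjusted p of 0.0214 (log2 fold change 2.68). That fit called 1.93% of all genes. Across the fits that left out 1 mouse, its edgeR adjusted p ranged from 0.0214 to 0.204.

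*Ephb6* (chr6:41605482-41620509), also a receptor without kinase activity, was measured from a mean of 1211 reads per mouse. It lay at 29.9, 30.8 and 33.2 CPM (lowest, median and highest) in controls and at 33.4, 38.4 and 53.3 CPM in mutants. All 6 mutants lay above all 6 controls, and mutants 1 and 2, at 51.6 and 53.3 CPM, stood above the other 4 mutants. The mean was 1.33-fold higher, with a log2 fold change of 0.41 (SE 0.11, edgeR adjusted p = 0.116), and the exact permutation p of 0.00216 is the smallest that 6 mice against 6 can give. Without mutant 5, the mutant with the lowest value, *Ephb6* was called at an edgeR adjusted p of 0.0421 (log2 fold change 0.47). Across the fits that left out 1 mouse, its edgeR adjusted p ranged from 0.0421 to 0.248. Without mutants 1, 2 and 4 the difference was 0.23 (SE 0.07) on the log2 scale.

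*Slit1* (chr19:41600257-41743665), a Slit known mainly from the nervous system, ranged from 0.321 to 0.697 CPM in controls, with a median of 0.547. In mutants it ranged from 0.735 to 14.4 CPM, with a median of 1.29. Mutant 4, with 493 reads, stood far above the other 5 mutants, of which the highest lay at 1.97 CPM. The groups did not overlap (exact permutation p = 0.00216). The log2 fold change was 2.69 (SE 0.80, edgeR adjusted p = 0.170) with mutant 4 and 1.19 without it (edgeR adjusted p = 0.102).

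*Epha6* (chr16:59653483-60605531) had between 0 and 5 reads in each control, with a median of 0.0317 CPM and a highest value of 0.149 CPM. In mutants it lay at 0.0273, 0.249 and 2.54 CPM (lowest, median and highest). The highest value, 87 reads, was again that of mutant 4, and mutants 5 and 6, with 1 and 4 reads, lay among the controls. The log2 fold change of 3.45 (SE 1.06, edgeR adjusted p = 0.176) was 1.96 without mutant 4 and 1.39 (SE 0.83) without mutants 1, 2 and 4.

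*Unc5a* (chr13:54949411-55006018), a receptor that mediates repulsion by netrin, lay at 0.231, 0.419 and 0.677 CPM (lowest, median and highest) in controls and 0.53, 0.877 and 1.14 CPM in mutants. Of the 6 mutants, 4 lay above every control and mutants 3 and 4 overlapped with them. The log2 fold change was 0.96 (SE 0.27, edgeR adjusted p = 0.126, exact permutation p = 0.00866). Unlike *Slit1* and *Epha6*, it kept its size without mutants 1, 2 and 4, at 0.95 (SE 0.31).

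*Unc5d* (chr8:28646717-29219636), of the same receptor family, ranged from 6.95 to 11.3 CPM in controls (median 9.30) and from 8.99 to 21.8 CPM in mutants (median 12.01). *Ntng1* (chr3:109780040-110144011), whose product binds a partner on neighbouring neurites, ranged from 9.28 to 12.5 CPM in controls (median 10.2) and from 8.59 to 24.3 CPM in mutants (median 14.2). Both were highest in mutant 2, and mutant 5 had the lowest *Ntng1* value of all 12 mice. Their log2 fold changes were 0.49 (SE 0.20) for *Unc5d*, with an edgeR adjusted p of 0.371, and 0.49 (SE 0.20) for *Ntng1*, with an edgeR adjusted p of 0.381. Without mutants 1, 2 and 4 *Unc5d* differed by 0.23 (SE 0.17) and *Ntng1* by 0.028 (SE 0.14).

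*Epha5* (chr5:84054761-84417382), a receptor for ephrin-A ligands on neurites, ranged from 31.8 to 44.1 CPM in controls (median 35.2) and from 31.1 to 63.5 CPM in mutants (median 44.2). Mutant 4 was the highest and mutant 1 the lowest of the 12 mice. The log2 fold change was 0.31 (SE 0.14, edgeR adjusted p = 0.465, exact permutation p = 0.108) and 0.18 without mutant 4. It was 0.25 (SE 0.11) without mutants 1, 2 and 4. *Robo2*, the receptor of Slits in many developing axons, showed the same extremes, with 39.6 CPM in mutant 1 and 87.04 CPM in mutant 4 against 42.3 to 55.9 CPM in controls, and its p of 0.0618 was above the threshold.

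**Figure D3:**
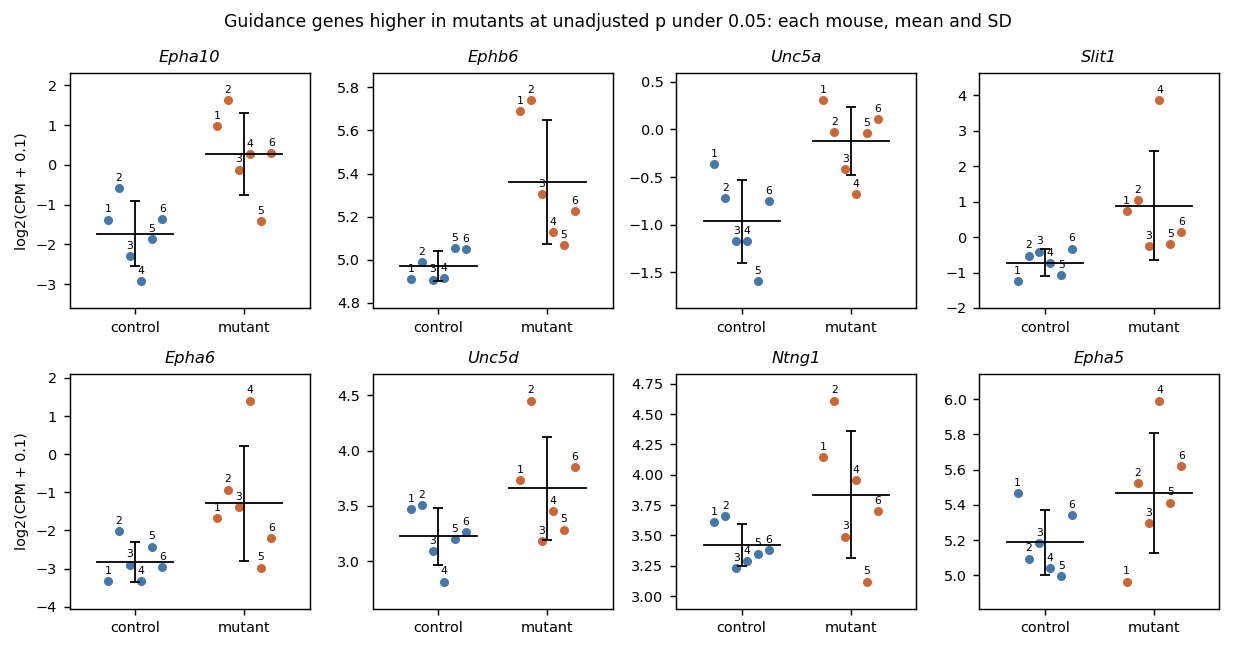
Log2(CPM + 0.1) of the 8 genes with higher values in mutants at an unadjusted p under 0.05, 1 point per mouse with its number, with the mean and SD of each genotype. *Slit1* and *Epha6* have their highest point in mutant 4, and *Epha10*, *Ephb6*, *Unc5d* and *Ntng1* in mutant 2. *Ephb6* and *Slit1* do not overlap between the genotypes.

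These 8 members were highest in 1 of the 3 mice with the largest neuron marker sums, as were 89.7% of all 1204 genes that were higher at an unadjusted p under 0.05 and 7380 of all 18459 genes tested: 4 in mutant 2 (*Epha10*, *Ephb6*, *Ntng1* and *Unc5d*), 3 in mutant 4 (*Epha5*, *Epha6* and *Slit1*) and 1 in mutant 1 (*Unc5a*). The neuron sums of these mice were 646, 1461 and 748 CPM. Among the controls, mice 1 and 2 had the largest neuron sums, 252 and 221 CPM. They also had the highest control values of *Unc5d* (10.98 and 11.3 CPM), *Ntng1* (12.1 and 12.5 CPM) and *Unc5a* (0.677 and 0.506 CPM). *Slit1* and *Ephb6* did not follow this order: *Slit1* was lowest in control 1, at 0.321 CPM, and *Ephb6* was highest in controls 5 and 6, at 33.2 and 33.1 CPM. *Epha5*, *Epha6* and *Epha10* followed it only in part. *Epha5* was highest in control 1, at 44.1 CPM, but lay below the control median in control 2, at 34.1 CPM. *Epha6* was highest in control 2, at 0.149 CPM, but 0 in control 1. *Epha10* was highest in control 2, at 0.565 CPM, with control 6 (0.290 CPM) above control 1 (0.285 CPM). When scores for neurons and Schwann cells in each mouse were entered as covariates, no member was higher at an unadjusted p under 0.05, against 1.31% of all genes, and 1, *Epha8*, was lower, against 1.47%. In that fit *Epha10* differed by −0.058 (SE 0.49), *Ntng1* by −0.33 (SE 0.21), *Unc5d* by −0.21 (SE 0.22) and *Ephb6* by 0.07 (SE 0.13) on the log2 scale. *Slit1* differed by 0.98 (SE 0.50) and *Unc5a* by 0.51 (SE 0.38). *Epha6* differed by 0.75 (SE 1.08), and *Epha5* by 0.24 (SE 0.18) against 0.31 (SE 0.14) without covariates. The scores were themselves higher in mutants, so the genotype and the marker sums cannot be fully told apart in these 12 mice. Without mutants 1, 2 and 4, 6 members were higher at an unadjusted p under 0.05, against 3.34% of all genes: *Epha10* (log2 fold change 1.58, SE 0.58), *Epha5*, *Ephb6*, *Robo2*, *Slit1* (0.67, SE 0.28) and *Unc5a*.

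**Figure D4:**
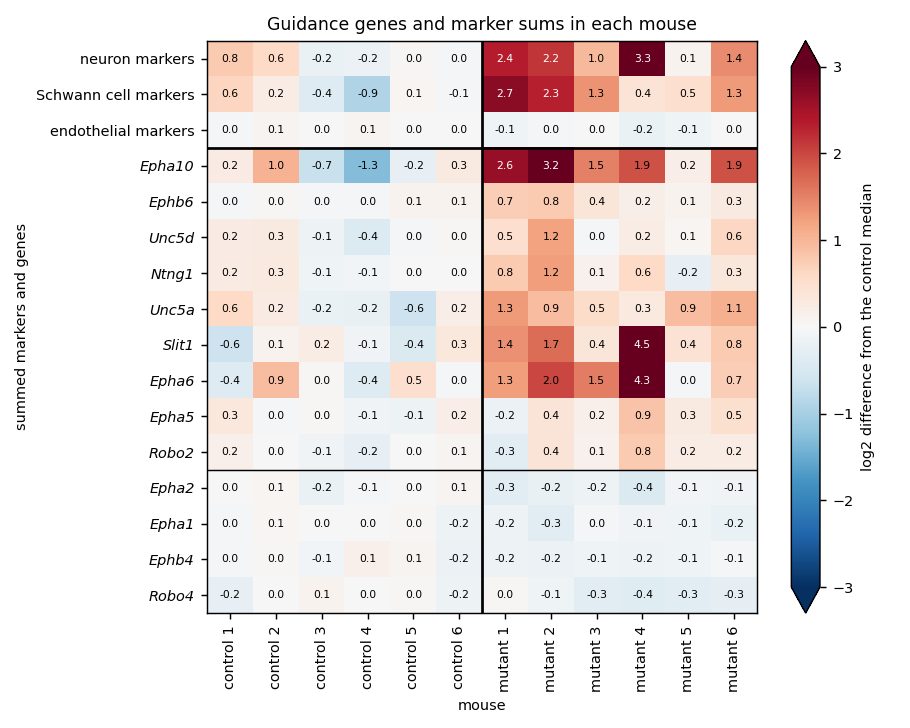
Log2 difference of each mouse from the median of the 6 controls, for summed CPM of neuron, Schwann cell and endothelial markers (top 3 rows) and for log2(CPM + 0.1) of 13 genes, with the genes that were higher above the lower line and the genes that were lower below it. The darkest squares of the neuron markers, *Slit1* and *Epha6* lie in mutant 4, and those of the Schwann cell markers in mutants 1 and 2. *Robo2*, with a p of 0.0618, is shown beside *Epha5*.

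The start regions of the higher members were read for the letters TGGGAA, the core recognised by RBPJ, the DNA-binding factor of the Notch pathway, on both strands. RefSeq (GRCm38.p6) start sites gave 40 windows of 250 bases upstream for 35 of the members. TGGGAA or its reverse complement TTCCCA was found in 7 of the 40 windows, 17.5%, against 21.6% of 32851 windows over all genes. Of the 8 higher members 6 had a window and only that of *Epha6* held a match. The windows of *Epha6*, with the match in capitals near its 3′ end, and of *Ephb6* and *Unc5a*, without one, show the GC-rich sequence common among these genes, whose windows had a median GC content of 64.6% against 52.4% over all genes. They lie at chr16:60605532-60605781 (minus strand), chr6:41605261-41605510 (plus strand) and chr13:54949161-54949410 (plus strand) and are written 5′ to 3′. A match is a description of these letters and not of binding.
*Epha6*: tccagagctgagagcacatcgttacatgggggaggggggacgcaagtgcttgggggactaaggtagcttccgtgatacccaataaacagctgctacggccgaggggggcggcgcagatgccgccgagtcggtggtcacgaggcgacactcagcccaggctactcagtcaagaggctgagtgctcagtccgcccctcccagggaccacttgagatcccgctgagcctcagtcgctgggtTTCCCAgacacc
*Ephb6*: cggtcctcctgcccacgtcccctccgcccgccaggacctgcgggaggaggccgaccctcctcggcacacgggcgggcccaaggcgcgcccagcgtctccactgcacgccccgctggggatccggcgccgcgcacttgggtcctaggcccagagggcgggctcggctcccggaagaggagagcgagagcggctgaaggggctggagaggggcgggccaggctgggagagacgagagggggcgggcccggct
*Unc5a*: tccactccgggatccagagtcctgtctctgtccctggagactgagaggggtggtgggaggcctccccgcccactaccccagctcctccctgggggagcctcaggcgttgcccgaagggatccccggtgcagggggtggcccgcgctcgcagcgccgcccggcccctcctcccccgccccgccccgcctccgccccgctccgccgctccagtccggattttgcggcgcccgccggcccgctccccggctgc

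Differences in the other direction were small. The 4 members that were lower at an unadjusted p were 3 Eph receptors, *Epha2*, *Epha1* and *Ephb4*, and *Robo4*, the Robo of endothelial cells. *Epha2* (chr4:141301240-141329384), an epithelial Eph receptor, lay at 11.97, 13.9 and 14.6 CPM (lowest, median and highest) in controls and 10.2, 12.2 and 13.1 CPM in mutants. All mutants lay below the control median, and 3 lay below every control. The log2 fold change was −0.19 (SE 0.08, edgeR adjusted p = 0.400, exact permutation p = 0.0195), and −0.089 (SE 0.09) without mutants 1, 2 and 4.

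*Epha1* (chr6:42358487-42373268), likewise an epithelial receptor, lay at 27.0, 30.2 and 31.3 CPM in controls, against 24.4, 27.3 and 29.4 CPM in mutants (log2 fold change −0.14, SE 0.06, edgeR adjusted p = 0.443). It shares 6.01% of its merged exons with *Zyx* on the opposite strand. *Ephb4* (chr5:137350109-137378669), the receptor that marks veins, lay at 181, 205 and 227 CPM in controls, against 183, 186 and 196 CPM in mutants (log2 fold change −0.13, SE 0.06, edgeR adjusted p = 0.458). All mutants lay below the control medians of both genes, but within or close to the control ranges. The exact permutation p was 0.0238 for *Epha1* and 0.0346 for *Ephb4*. Without mutants 1, 2 and 4 *Epha1* differed by −0.11 (SE 0.07) and *Ephb4* by −0.10 (SE 0.08).

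*Robo4* (chr9:37401897-37415115) lay at 19.7, 23.4 and 24.9 CPM in controls, against 18.1, 19.1 and 23.9 CPM in mutants. Of the mutants, 4 lay below every control, whereas mutant 1 lay at 23.9 CPM (log2 fold change −0.18, SE 0.08, edgeR adjusted p = 0.460). By exact permutation *Robo4* had a p of 0.0584, above 0.05. Without mutants 1, 2 and 4 *Robo4* differed by −0.26 (SE 0.09) and was the 1 member lower at an unadjusted p under 0.05, against 3.62% of all genes. Mutants 1 and 2 had the highest *Robo4* values of the mutants, 23.9 and 21.3 CPM, and mutant 4 the lowest, 18.1 CPM. Leaving out mutants 1 and 2 enlarges the difference by construction, so the larger value is given as a description only. The summed CPM of 10 endothelial markers lay between 717 and 776 in controls and between 647 and 746 in mutants, and supporting cell markers summed to 3019 to 3747 and 2635 to 3051 CPM; their part in the lower values was not tested. Members lower at an unadjusted p under 0.05 numbered 3 without control 1 or control 6, 0 without control 2 or control 5 and 1 or 2 without any other mouse. Without mutant 4 they were *Epha1* and *Ntn4*, the latter not among the 4 named here.

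**Figure D5:**
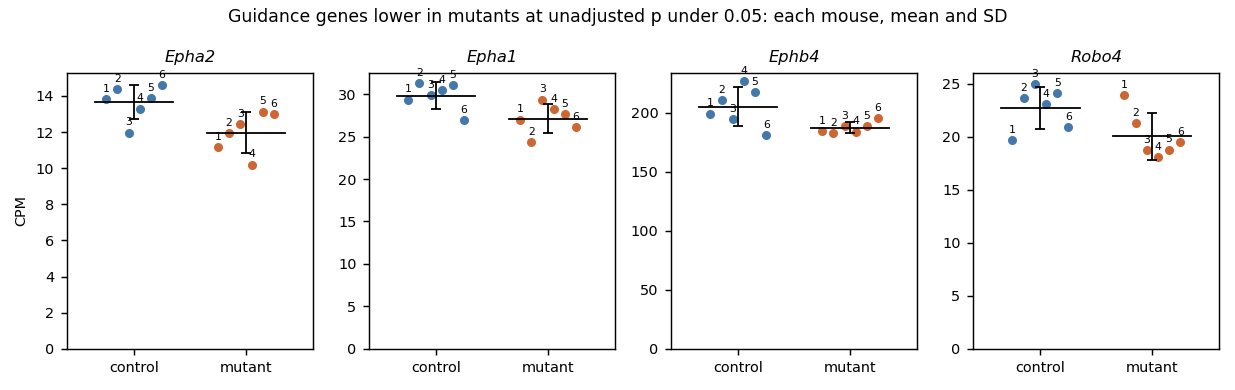
CPM of the 4 genes with lower values in mutants at an unadjusted p under 0.05, 1 point per mouse with its number, with the mean and SD of each genotype, from 0. The points of the genotypes overlap in every panel.

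Single mice also stood out across the members. Mutant 1 was the lowest of the 12 mice in 14 of the 39 members, 35.9%, against 20.3% of all genes tested. These were *Dcc*, *Efnb2*, *Epha3*, *Epha4*, *Epha5*, *Epha7*, *Neo1*, *Ntn1*, *Robo1*, *Robo2*, *Slit2*, *Slit3*, *Unc5b* and *Unc5c*, most of them long transcripts. *Slit2*, for example, lay at 93.4 CPM in mutant 1 against 131.6 to 199 CPM in controls, and *Robo1* at 82.6 against 115 to 163 CPM. Mutant 1 is the library with lower values in long transcripts, and the part of transcript length in these values was not tested. Mutant 2 was the highest in 8 of the 39 members, 20.5%, against 15.6% of all genes tested, among them *Slit2* at 201.6 CPM and *Slit3* at 78.7 CPM.

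The 52 other genes of these pathways, listed from their roles as ligands, co-receptors, adaptors and intracellular effectors, were all tested. None was called. At an unadjusted p under 0.05, 3 were higher, 5.77% against 6.52% of all genes, and 5 were lower, 9.62% against 4.04%, and their median log2 fold change was 0.008. *Dscam*, a further netrin receptor of axons, measured 1.18 ± 0.346 CPM in controls against 2.72 ± 1.31 CPM in mutants (log2 fold change 1.21, SE 0.32, edgeR adjusted p = 0.114). The other higher genes were *Srgap1*, a GTPase-activating protein that acts below Robo (0.33, SE 0.15), and *Fyn*, a kinase downstream of several guidance receptors (0.32, SE 0.11). *Vasp*, an actin regulator, ranged from 79.7 to 88.5 CPM in controls and from 72.8 to 79.3 CPM in mutants (log2 fold change −0.18, SE 0.05, edgeR adjusted p = 0.120). *Sdc1*, a heparan sulfate proteoglycan of epithelia, ranged from 24.7 to 26.5 CPM in controls and from 21.9 to 24.0 CPM in mutants (−0.17, SE 0.05, edgeR adjusted p = 0.154). The values of *Vasp* and *Sdc1*, 2 of the 52, did not overlap between the genotypes, as for 0.997% of all genes tested. *Nell2*, a secreted ligand of Robo (−0.34, SE 0.12), the adaptor *Nck2* (−0.15, SE 0.06) and the kinase *Abl1* (−0.12, SE 0.05) were also lower at an unadjusted p, with overlapping values.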

How the data were processed

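The RNA-seq of 12 mouse cochleae was re-analysed from the count table. The authors deposited raw read counts per gene symbol, 1 column per mouse, without normalization, together with their own table of fold changes and p-values, which was not used. Per the submitters' processing notes the tools were Trimmomatic 0.32, STAR 2.4.2a, HTSeq 0.9.1 and DESeq2 1.10.1 and the build GRCm38.p4. The annotation and the strand setting are not given in the sources used here, so reads shared by genes on opposite strands may have been counted on either or neither.

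A gene was tested if its counts averaged 5 or more per mouse, which 18459 of 28686 did. The model was edgeR's quasi-likelihood fit (edgeR 4.0.16, R 4.3.3) with TMM factors, robust estimation and genotype as the only term, over all 12 mice. Adjustment was by Benjamini-Hochberg across every tested gene, and a gene counts as called where its adjusted p is under 0.05. Single members were compared besides by exact permutation, two-sided, of mean log2(CPM + 0.1). With 6 mice against 6 there are 924 divisions, and the smallest p they allow is 0.00216. The test was also run on counts simulated from its own fitted model, which cannot show how it behaves where single mice stand out. Levels per kb use the longest coding transcript of GENCODE M21 on GRCm38. The score of a cell type is the average log2 CPM over its markers (prior count 2). Alternatives were DESeq2 1.42.0, limma-voom (limma 3.58.1), other normalizations and filters, marker scores or *Xist* as covariates, a replicate block and leaving out each mouse. Leaving out mutants 1, 2 and 4 together was added after seeing the data.

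Described in full were members with an unadjusted p under 0.05 or values that did not overlap. The 2 genes of highest level in each family, *Robo3* under the filter and at most 8 partner genes in order of p were given more briefly. The members and lists were chosen with earlier results of these data known. *Robo2* in the plot by mouse, and other members named for a single mouse, were chosen after their values were seen. Within a genotype the libraries varied beyond counting error (chi-square per degree of freedom 13.5 to 71.0 over 30 pairs), and depth limits mainly the members below 1 CPM. The p-values rest on the spread between mice taken as independent, whereas the litter of each mouse is not given.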

Additional observations from a re-analysis of the deposited data

Results flagged for a closer look

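Among 82 groups of 6 mice (40 members and *Jag1* in each genotype), 5 held a mouse whose gap to the nearest other value exceeded Dixon's critical value for 6 samples, as a share of the range of its group, where chance alone sets apart about 5% of groups. *Slit1* lay at 14.4 CPM in mutant 4 against 0.735 to 1.97 CPM in the other mutants. *Epha6* lay at 2.54 CPM in the same mouse against 0.0273 to 0.425 CPM. *Robo1* lay at 82.6 CPM in mutant 1 against 131.8 to 157 CPM in the other mutants, and *Epha4*, an Eph receptor that binds ephrins of both classes, at 40.3 CPM in mutant 1 against 57.4 to 66.2 CPM. *Robo3* lay at 0 CPM in control 4 against 0.0578 to 0.0893 CPM in the other controls, a difference of a few reads.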

How the results depend on the processing

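The 12 members described in full kept the direction of their log2 fold change in every setting without marker covariates in which they were tested; *Epha6* was not kept by a mean count of at least 20 or by filterByExpr. With covariates for both the neuron and the Schwann cell score *Epha10* (−0.058), *Ntng1* (−0.33) and *Unc5d* (−0.21) reversed, and with the neuron score alone *Epha6* (−0.088), *Ntng1* (−0.097) and *Slit1* (−0.12) reversed; the cause was not tested. All genes called numbered 35, against 619 with DESeq2, 19 with limma-voom, 57 without a filter, 131 with the replicate block, 1 with both scores, 2 with the neuron score, 22 with the mesenchyme score, 23 with *Xist* and 14 to 357 without 1 mouse (357 without mutant 5). Members called numbered 0, against 3 with DESeq2, 1 with the replicate block (*Epha10*, adjusted p = 0.0287) and 0 to 2 without 1 mouse (2 without mutant 5). Partner genes called numbered 0, against 3 with DESeq2 and 0 to 1 without 1 mouse. Members higher at an unadjusted p numbered 8, against 0 with both scores, 1 with the neuron score and 5 to 8 without 1 mouse (5 without control 3, control 4 or mutant 2). Members lower numbered 4, against 1 with upper-quartile normalization, both scores, the mesenchyme score or mutants 1, 2 and 4 left out, 2 without a filter, 0 with the neuron score or the replicate block and 0 to 3 without 1 mouse. *Jag1* differed by −1.40 with both scores (adjusted p = 0.0930) and by −1.54 to −1.39 without 1 mouse. Mice with the same replicate number did not deviate together (correlations −0.19 to 0.27), so the numbers were not taken to pair them, and the replicate block is given as an alternative only. Members below 1 CPM rest on few reads per mouse.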

Other observations

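Of the members that were not described in full, *Epha8*, an Eph receptor of low level here, differed most: it lay between 0.249 and 1.22 CPM in controls and between 0.383 and 1.96 CPM in mutants, with overlap (log2 fold change 0.51, SE 0.38, edgeR adjusted p = 0.748). It was named after its values were seen. With covariates for both the neuron and the Schwann cell score it differed by −1.14 (SE 0.39, unadjusted p = 0.0112 in edgeR) and was the 1 member past an unadjusted p of 0.05, and without mutants 1, 2 and 4 it differed by −0.014 (SE 0.46).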
